A study of Mus musculus with 12 samples.

Results

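Circular RNAs (circRNAs) whose host gene is not typed protein_coding were examined in mouse liver. Such genes are called noncoding hosts below, although some of them code for protein. A circRNA was taken when its start and its end were exon boundaries of a GENCODE M21 gene of any type other than protein_coding, and of no protein_coding gene. By this rule 70 of the 16445 circRNAs in the table qualified, from 38 of 4716 host genes. Another 15667 circRNAs had a protein_coding host, and 708 had no pair of boundaries in 1 gene. Values are in SRPBM, the unit that the authors' table names. In this field it stands for reads across the back-splice, scaled by how many reads a library mapped, though the authors' exact formula is not stated.

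The study compared 2 groups of mice, and each library is the liver of 1 mouse. The 6 PZH mice had injections of carbon tetrachloride (CCl4), which is toxic to hepatocytes and leads to fibrosis. They also received the traditional Chinese medicine Pien Tze Huang (PZH), every day in weeks 2 to 8, as a 25 mg/ml preparation. The 6 Control mice received CCl4 alone. In both groups CCl4 was used at 10% and injected 2 times a week at 10 µl for every 10 g of weight, and the mice were killed at week 8. The labels write the strain as C57BL/8. Age is not given in the sources used here. No liver free of CCl4 was analysed here, so every comparison is between CCl4 with PZH and CCl4 alone.

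A circRNA forms when the spliceosome joins the end of an exon back to the start of the same exon or of one before it. The closed loop has no free ends and resists exonucleases, so it can outlast the linear RNA of its gene. Long noncoding RNAs and transcribed pseudogenes are spliced by the same machinery and can give circles too. Pvt1, a long noncoding RNA gene next to the oncogene Myc, is a well known host in human cells. Mug-ps1 belongs to the murinoglobulin genes, relatives of alpha-2-macroglobulin that code for protease inhibitors of mouse plasma made in liver. Nlrp5-ps is related to Nlrp5, a gene needed in the mouse egg for early development.

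The sequence across a back-splice identifies the circle, so junctions are shown for the circles that the values turn on. Each line has the last 30 bases of the circle's end exon followed by the first 30 bases of its start exon, 5′ to 3′ on the host's strand, with the 10 bases on each side of the junction in capitals. The letters come from the GENCODE M21 transcripts (GRCm38).
Pvt1 exon 2, chr15:62107148-62107465, plus strand: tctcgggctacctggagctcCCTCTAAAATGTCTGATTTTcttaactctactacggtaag
Mug-ps1 exons 7 to 12, chr6:122207897-122221009, plus strand: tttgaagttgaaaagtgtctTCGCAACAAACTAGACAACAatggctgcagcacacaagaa
Mug-ps1 exons 7 to 11, chr6:122207897-122218716, plus strand: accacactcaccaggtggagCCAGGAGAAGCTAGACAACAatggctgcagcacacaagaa
Mug-ps1 exons 10 to 11, chr6:122218170-122218716, plus strand: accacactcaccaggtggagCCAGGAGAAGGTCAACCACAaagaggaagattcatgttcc
Mug1 exons 12 to 13, chr6:121861049-121861567, plus strand: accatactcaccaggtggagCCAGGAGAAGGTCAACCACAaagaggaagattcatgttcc
Gm40438 exons 3 to 5, chr12:71431207-71436739, plus strand: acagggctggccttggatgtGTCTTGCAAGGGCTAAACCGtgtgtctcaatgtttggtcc
Nlrp5-ps exons 2 to 11, chr7:14578736-14609339, minus strand: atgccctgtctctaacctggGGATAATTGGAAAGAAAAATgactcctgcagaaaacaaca

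The Mug1 line is no noncoding circle. It is shown because Mug1, a coding murinoglobulin gene, has a circle whose junction is identical to that of Mug-ps1 exons 10 to 11 in 59 of 60 bases. The table gives coordinates only, and exon numbers refer to 1 matching transcript per circle. Circles of 1 host can therefore be numbered on different transcripts.

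The Pvt1 circle is a single exon of 318 bases, so it can be shown nearly whole. The run below gives 300 of the 318 bases read round the circle through its back-splice, whose 10 flanking bases on each side are in capitals, and leaves 18 out.
Pvt1 exon 2 circle: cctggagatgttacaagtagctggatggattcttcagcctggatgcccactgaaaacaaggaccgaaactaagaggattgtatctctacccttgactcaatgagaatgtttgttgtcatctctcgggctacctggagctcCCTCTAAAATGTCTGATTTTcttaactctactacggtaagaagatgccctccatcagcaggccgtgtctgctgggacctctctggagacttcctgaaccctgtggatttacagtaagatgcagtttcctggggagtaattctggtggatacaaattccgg

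Depth in reads is unknown, and sums of SRPBM, a unit understood to be scaled by mapped reads, do not measure it. Libraries summed to 31472 to 41080 SRPBM in PZH and 28922 to 40927 SRPBM in Control. They listed 4439 to 5510 circRNAs above 0 in PZH and 3735 to 5500 in Control. Median correlations of a library with the others were 0.846 to 0.873 on the log2 scale, over circRNAs above 0 in all 12 libraries only. The liver label was checked on host genes of known cell types. All 8 hepatocyte hosts on the list gave circRNAs, summing to 432 to 536 SRPBM in PZH and 371 to 561 SRPBM in Control. Of these hosts 5 were above 0 in all 12 libraries, while Cps1 was in 11, C3 in 10 and Apob in 5. Abcc2 alone summed to 178 to 249 SRPBM in PZH and 156 to 244 SRPBM in Control. Adgre1, which codes for the macrophage protein F4/80, was above 0 in all 12 libraries. Of 4 neuronal hosts only Rims2 gave any circRNA, in 3 libraries, at up to 4.12 SRPBM in PZH and 13.6 SRPBM in Control. Neither of 2 cardiac hosts gave any. Circles of Reln, a gene of hepatic stellate cells, summed to 4.12 to 11.7 SRPBM in PZH and 0 to 3.32 SRPBM in Control. Among the hepatocyte hosts, circles of Pzp, an alpha-2-macroglobulin relative, summed to 18.9 to 25.5 SRPBM in PZH and 26.8 to 49.8 SRPBM in Control. Those of Mlxipl, the carbohydrate response factor ChREBP, summed to 169.7 to 211 SRPBM in PZH and 116 to 179 SRPBM in Control. The groups did not overlap for Reln and Pzp, in opposite directions, and overlapped for Mlxipl, the other hepatocyte hosts and Adgre1. Over the single circRNAs tested, the share without overlap was 0.672%. That share was not worked out for host sums, so no result is drawn from Reln and Pzp. The part of these markers in the results below was not tested. In bulk liver, fewer cells of a type and less RNA per cell cannot be told apart.

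CircRNAs of noncoding hosts were a small and uneven part of liver circRNA. They summed to 193.7 ± 24.6 SRPBM in PZH and 189.4 ± 26.7 SRPBM in Control (SD, n = 6 each), a difference well within 1 SD. As a share of all circRNA signal this was 0.536 ± 0.0564% in PZH and 0.541 ± 0.0673% in Control. A library held 21.5 ± 1.87 of the 70 circRNAs above 0 in PZH and 19.3 ± 1.37 in Control, with ranges of 19 to 24 and 18 to 21. Over the whole table a library listed 5060 ± 390 circRNAs above 0 in PZH and 4859 ± 660 in Control. The circles of Pvt1 and Mug-ps1 together carried 70.3% of the summed signal. The 5 circRNAs above 0 in all 12 libraries carried 57.2%.

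By annotated type, 25 of the 70 came from 13 lincRNA genes (long intergenic noncoding RNAs), which held 58.7% of the signal. A further 18 came from 10 genes typed processed_transcript, with 5.51% of the signal, and 7 from 6 antisense genes, with 3.65%. Transcribed unprocessed pseudogenes, copies of a gene that keep introns, gave 14 circRNAs from 4 genes and 31.7% of the signal. All pseudogene types together gave 19 circRNAs from 8 genes, so 51 remained without them. The last host, Ighm, is typed IG_C_gene and codes for the constant part of the immunoglobulin M heavy chain. RefSeq lists 26 of the 38 hosts as lncRNA, 8 as pseudogenes and 2, Zswim6 and Tctn2, as protein_coding. GENCODE M21 types the genes Zswim6 and Tctn2 as processed_transcript, so their circles met the rule.

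**Figure D1:**
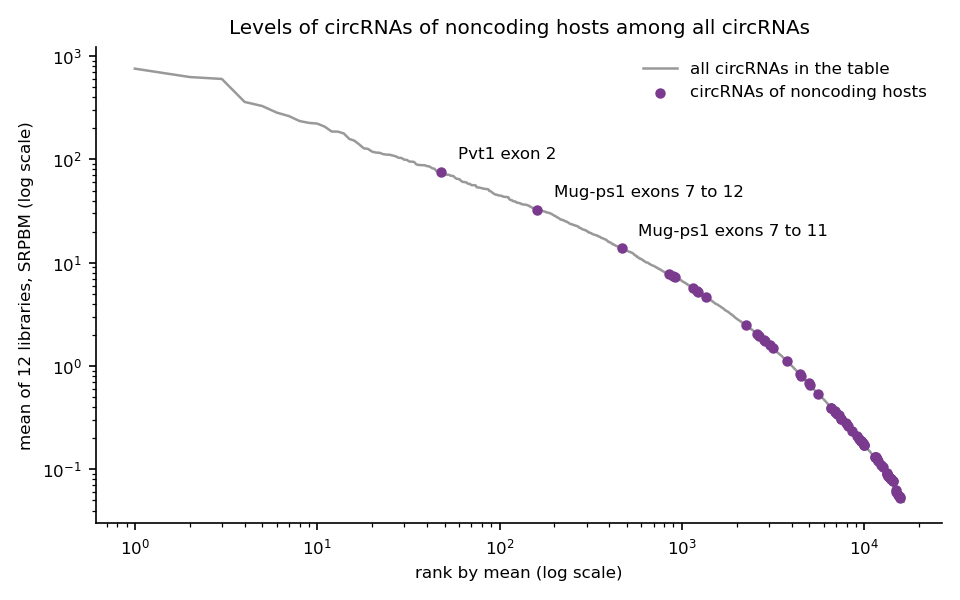
Mean SRPBM over 12 libraries (y axis, log scale) against rank by that mean (x axis, log scale) for all 16445 circRNAs in grey and the 70 of noncoding hosts as coloured points. The Pvt1 exon 2 circle ranks 48 and the leading Mug-ps1 circle 161, and most of the others lie in the low tail.

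Most circRNAs of noncoding hosts were rare, about as often as those of coding hosts. Of the 70, 34 (48.6%) were above 0 in exactly 1 library, against 43.2% of circRNAs with a protein_coding host. These 34 were seen in 19 cases in a PZH library and in 15 in a Control library, at no more than 4.76 SRPBM. Another 20 were above 0 in 2 to 5 libraries. The remaining 16 (22.9%) were above 0 in at least 6 libraries and could be tested, against 24.2% for coding hosts, and 5 (7.14%) in all 12, against 6.85%. Where above 0, the median value was 1.86 SRPBM, against 1.67 SRPBM for coding hosts.

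In structure the circles of noncoding hosts were shorter than those of coding hosts. Their median span on the genome was 4028 bp, against 6241 bp, and their exons summed to a median of 349.5 bases, against 412 bases. A circle of exactly 2 exons was the commonest form, with 34 of 70 (48.6%) against 28.6% of coding-host circles. Single-exon circles were 6 of 70 (8.57%), against 4.21%. Exon 2 was the start exon of 28 circles (40.0%), against 26.6%. A start at exon 2 is a known common form, since the first exon has no upstream splice site to receive a back-splice.

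Introns next to noncoding circles were longer, with medians of 7413 bp before the start and 6011 bp after the end, against 5630 bp and 4462 bp for coding hosts. The median GC content was nearly the same, 47.3% for both kinds of host. Noncoding hosts gave 1.84 circRNAs each, against 3.35, and 24 of the 38 gave just 1. A start or end shared with another circle of the same kind was found for 38 circles (54.3%), against 67.7%. These are descriptions of the annotation and of the caller's output, with no test. The circle of Gm45086 is the exception among the 70, since it spans both exons of its transcript and has no annotated intron on either side.

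The exon 2 circle of Pvt1 was the leading circRNA of a noncoding gene, 48th of all circRNAs by its mean. It ran from 64.0 SRPBM through a median of 79.1 to 89.3 SRPBM in PZH and from 64.3 through 76.4 to 89.3 SRPBM in Control. The groups covered nearly the same range. Means were 77.2 ± 10.0 SRPBM in PZH and 75.3 ± 8.97 SRPBM in Control (SD, n = 6 each), with a log2 fold change of 0.03 ± 0.13 (SE) and a 95% interval of -0.23 to 0.30 (limma with Benjamini-Hochberg adjustment, adjusted p = 0.973). The sign of so small a value turned under both other scalings, with log2 fold changes of -0.0059 and -0.012. This circle alone made up 40.0 ± 3.56% of the noncoding signal in PZH and 40.3 ± 6.58% in Control.

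Introns of 68946 bp before and 41773 bp after the exon separate it from its neighbours in the transcript. The other 4 Pvt1 circles were far lower. Exons 6 to 7 (chr15:62242174-62242561) gave up to 5.38 SRPBM in PZH, with 4 libraries above 0, and up to 6.13 SRPBM in Control, with 2 libraries above 0. Exons 2 to 3 (chr15:62107148-62149352) and 4 to 5 (chr15:62159997-62175548) were above 0 in 5 and 1 libraries. A circle labelled exons 3 to 4 (chr15:62175467-62175926) was above 0 in 3 libraries. It is numbered on another transcript, of 7 exons where that of the other circles has 9. On the genome it lies at the far end of exons 4 to 5. Summed over its 5 circles, Pvt1 had a median of 85.6 SRPBM in PZH and 78.4 SRPBM in Control, and the host sum did not differ (log2 fold change 0.07 ± 0.14 SE, limma adjusted p = 0.908).

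**Figure D2:**
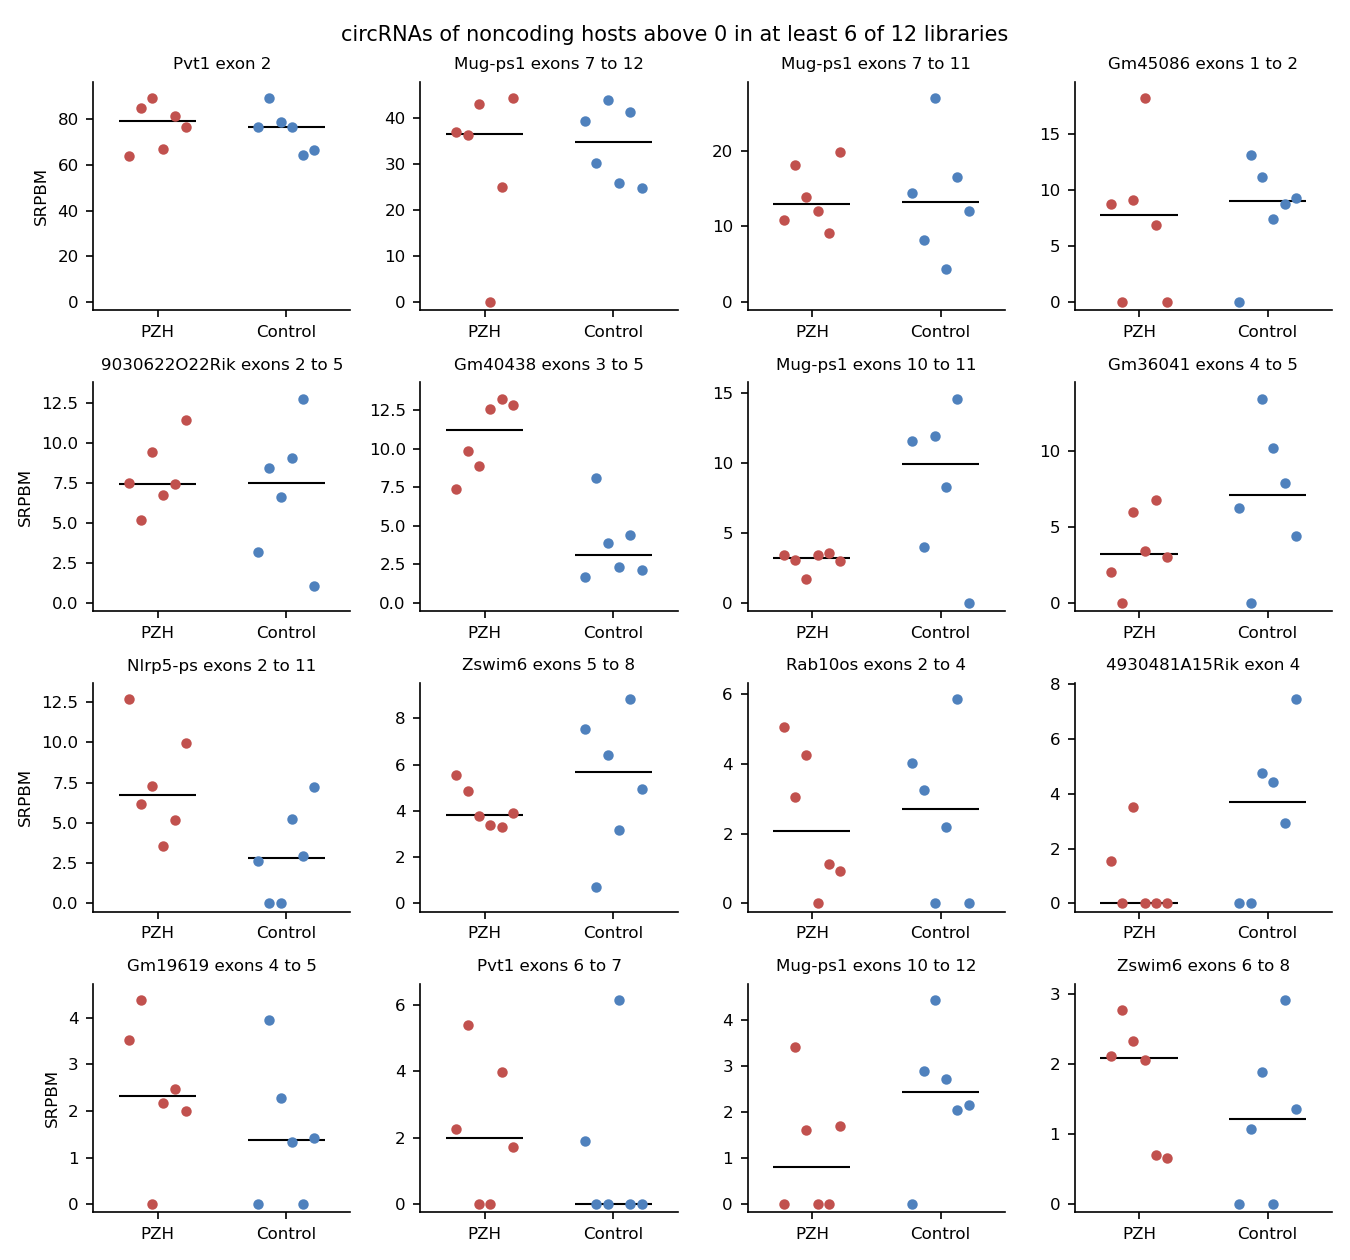
SRPBM in each library for the 16 circRNAs of noncoding hosts that were tested, with PZH left and Control right in each panel, points for libraries and lines for group medians, on a linear axis of its own per panel. Pvt1 exon 2 overlaps nearly completely between the groups, while Gm40438 exons 3 to 5 overlaps through 1 Control library at 8.11 SRPBM.

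Gm40438, a lincRNA gene without a role known here, had the smallest p among these circRNAs. Its circle of exons 3 to 5, 512 bases long, had 7.40, 11.2 and 13.2 SRPBM as the lowest, median and highest PZH library, against 1.66, 3.10 and 8.11 SRPBM in Control. Of the 6 Control libraries only replicate 2 lay within the PZH range. Means were 10.8 ± 2.42 SRPBM in PZH and 3.75 ± 2.39 SRPBM in Control (SD, n = 6 each).

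The log2 fold change of Gm40438 exons 3 to 5 was 1.51 ± 0.38 (SE), or 2.84-fold, with a 95% interval of 0.73 to 2.29. The unadjusted limma p was 0.000619 and the exact 2-sided permutation p was 0.00433, where 0.00216 is the smallest that 6 against 6 libraries allow. Over the 3870 circRNAs tested the limma adjusted p was 0.263, so the difference did not pass. It passed where only circRNAs above 0 in all 12 libraries were tested (adjusted p = 0.00624) and where entries at 0 were treated as missing (adjusted p = 0.00371), and adjusted p ran from 0.118 to 0.594 under all other alternatives. The circle of exons 4 to 5 was seen in 1 PZH library, at 1.33 SRPBM.

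Other lincRNA circles had values that overlapped widely. The circle of exons 2 to 5 of 9030622O22Rik (chr2:147962032-147973014, minus strand) had 7.96 ± 2.18 SRPBM in PZH and 6.85 ± 4.23 SRPBM in Control, with a log2 fold change of 0.44 ± 0.44 (SE). The PZH range of 5.20 to 11.4 SRPBM lay wholly inside the Control range of 1.06 to 12.8 SRPBM.

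Gm45086 exons 1 to 2 (chr7:48724380-48726822, minus strand) was above 0 in 4 PZH libraries, up to 18.3 SRPBM, and in 5 Control libraries, up to 13.1 SRPBM. Where listed above 0 it was never under 6.87 SRPBM in PZH or 7.46 SRPBM in Control, so it moved between a clear value and a listed 0. Gm36041 exons 4 to 5 (chr10:122430750-122431325, plus strand) was above 0 in 5 libraries of each group, up to 6.77 SRPBM in PZH and up to 13.5 SRPBM in Control. Gm19619 exons 4 to 5 (chr5:91264633-91274001, minus strand) reached 4.38 SRPBM in PZH and 3.96 SRPBM in Control. None of these passed the test, with limma adjusted p of 0.836 to 0.895.

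Mug-ps1 was the second host by level and gave 6 circles that reuse few exon ends. The main circle joins exon 12 back to exon 7 and holds 830 bases. In PZH it was listed at 0 in replicate 4 and lay at 25.1 to 44.4 SRPBM in the other 5 libraries, against 24.8 to 44.0 SRPBM in Control. Apart from that 0 the ranges nearly coincide. The log2 fold change was -0.85 ± 0.70 (SE, limma adjusted p = 0.798), and 0.12 without PZH replicate 4, so that library sets the sign. In the same PZH replicate 4 the circle of exons 7 to 11 lay within the 9.13 to 19.8 SRPBM of the other 5 PZH libraries.

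The circle of exons 7 to 11 had 13.98 ± 4.21 SRPBM in PZH and 13.8 ± 7.83 SRPBM in Control (SD, n = 6 each). Its log2 fold change was 0.16 ± 0.34 (SE, limma adjusted p = 0.943), and -0.10 without Control replicate 4. Circles starting at exon 10 gave another picture. Exons 10 to 11 lay at 1.69, 3.24 and 3.58 SRPBM as the lowest, median and highest PZH library, against 0, 9.93 and 14.6 SRPBM in Control. In 5 of 6 Control libraries it was above every PZH library, and in Control replicate 6 it was listed at 0.

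The log2 fold change of Mug-ps1 exons 10 to 11 was -0.80 ± 0.62 (SE) and did not pass (limma adjusted p = 0.780, exact permutation p = 0.294). With entries at 0 as missing it was -1.46, which passed (adjusted p = 0.0218). Without Control replicate 6 in all circRNAs it was also -1.46, with an adjusted p of 0.418. Exons 10 to 12 were above 0 in 3 PZH libraries, up to 3.41 SRPBM, and in 5 Control libraries, up to 4.42 SRPBM.

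Grouping the circles by start exon was chosen after their values were seen and is given without a test. Circles that start at exon 10 summed to 3.29 to 6.47 SRPBM in PZH and 2.14 to 16.7 SRPBM in Control. Again 5 of 6 Control libraries lay above all PZH libraries. Circles that start at exon 7 summed to 44.9 ± 19.1 SRPBM in PZH and 48.5 ± 16.3 SRPBM in Control. Exon 10 starts were thus 10.2 ± 6.16% of Mug-ps1 signal in PZH and 17.5 ± 7.20% in Control, means that differ by about the spread within a group. The highest PZH share, 22.2%, was that of replicate 4, where the circle of exons 7 to 12 is listed at 0, and the other 5 PZH libraries had 5.46% to 10.6%. Set against exons 7 to 11 alone, which every library lists, exon 10 starts were 23.2 ± 3.73% of the pair's sum in PZH and 44.1 ± 18.2% in Control. By that share 5 of 6 Control libraries lay above all PZH libraries, and Control replicate 6 lay below them at 15.1%. Like the grouping, that share was not planned. The sums and shares include the circle of exons 10 to 11 described above, so they are no separate support for its difference. All 6 circles summed to 15.4 to 68.9 SRPBM in PZH and 39.0 to 90.2 SRPBM in Control (host sum log2 fold change -0.34 ± 0.29 SE, limma adjusted p = 0.759).

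**Figure D3:**
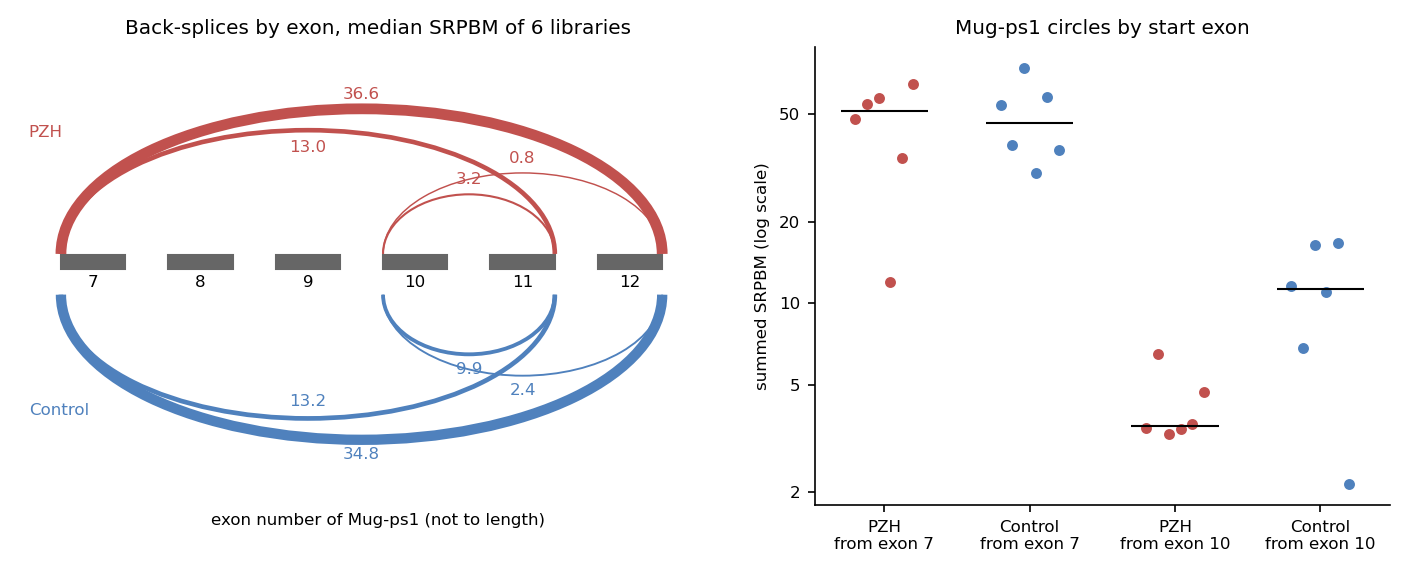
Left, Mug-ps1 exons 7 to 12 as boxes, not to length, with an arc for each of the 4 circles above 0 in at least 6 libraries, its width and number giving the median SRPBM, PZH above and Control below. Right, SRPBM summed by start exon in each library on a log axis with group medians as lines, where exon 10 starts lie at 3.29 to 6.47 in PZH and at 2.14 to 16.7 in Control.

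Reads of the murinoglobulin genes can be hard to place. For each circle, the 50 bases on either side of the junction were compared with exon ends of every other annotated gene. Bases were compared position by position, without gaps, so a related gene with an inserted or lost base can be missed. The best single gene matched the 6 Mug-ps1 circles in 94 to 99 of 100 bases, and the genes were Mug1, Mug2 and Gm7298. Mug-ps1 exons 10 to 11 and Mug1 exons 12 to 13 are both 292 bases long and identical in 279 of them. The Mug1 circle was above 0 in no PZH library and in 2 Control libraries, at 1.27 and 0.636 SRPBM.

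How the authors' caller divided such reads is not given in the sources used here, so values of Mug-ps1 circles are uncertain. Of the coding relatives, 3 circles could be tested, and they did not share a direction. Mug2 exons 13 to 15 had 7.56 ± 3.24 SRPBM in PZH and 11.2 ± 3.16 SRPBM in Control (SD, n = 6 each), with a log2 fold change of -0.57 ± 0.32 (SE, limma adjusted p = 0.686). Mug2 exons 13 to 17 reached 9.28 SRPBM in PZH, with 5 libraries above 0, and 9.67 SRPBM in Control, with all 6 above 0 (log2 fold change -0.26 ± 0.58 SE, limma adjusted p = 0.946). Mug1 exons 15 to 16 was above 0 in 5 PZH libraries, up to 5.19 SRPBM, and in 3 Control libraries, up to 9.20 SRPBM (log2 fold change 0.61 ± 0.82 SE, limma adjusted p = 0.895).

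Nlrp5-ps also gave 6 circles, and each of them uses the start of exon 2 or the end of exon 11. Its main circle, exons 2 to 11, was above 0 in every PZH library, at 3.54, 6.75 and 12.7 SRPBM for the lowest, median and highest. In Control it was above 0 in 4 of 6 libraries, with a median of 2.79 and a highest value of 7.20 SRPBM. The ranges overlap from 3.54 to 7.20 SRPBM.

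The log2 fold change of Nlrp5-ps exons 2 to 11 was 1.62 ± 0.62 (SE), with an unadjusted limma p of 0.0159 and an exact permutation p of 0.0303, and it did not pass over all circRNAs (adjusted p = 0.566). With the 2 Control entries at 0 as missing it was 0.65 (adjusted p = 0.62), and adjusted p ran from 0.453 to 0.693 over all alternatives. Exons 2 to 3 were above 0 in 3 PZH libraries, up to 3.70 SRPBM, and in no Control library. The other 4 were seen in 1 library each, 3 of them PZH, at no more than 1.03 SRPBM. Bases at the ends of the 6 circles matched Nlrp5 in 83 to 98 of 100, so their placement is uncertain too.

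**Figure D4:**
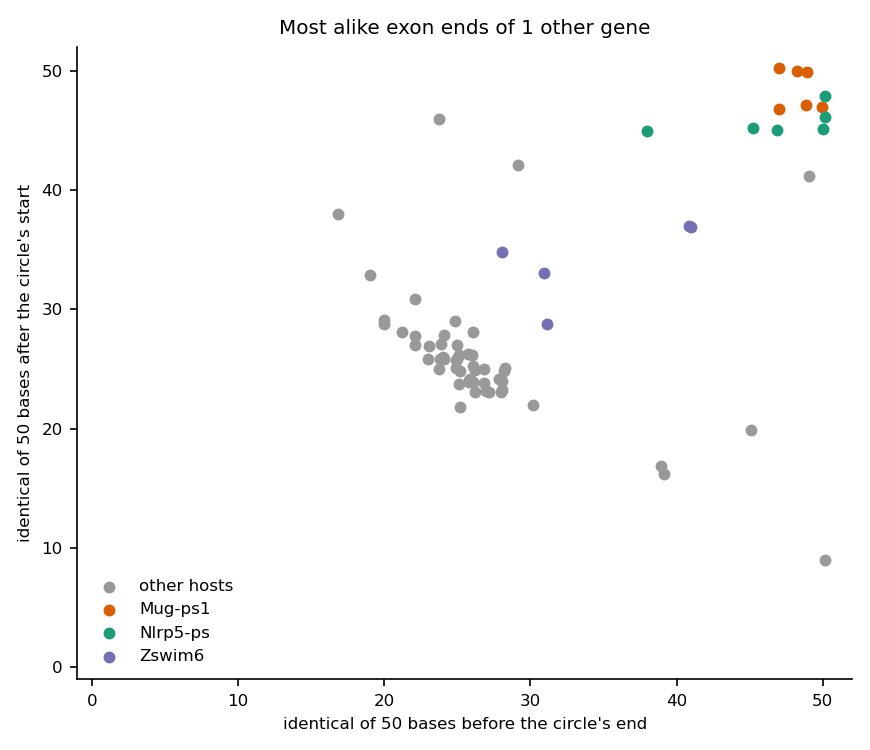
For each of the 70 circRNAs, how many of the 50 bases before its end (x axis) and of the 50 bases after its start (y axis) are identical in the most alike other gene, with points moved slightly at random so that they do not hide each other. Mug-ps1 lies near 50 on both axes, Nlrp5-ps lies slightly lower, and most other hosts lie near the middle of the range.

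Of the 70 circles, 12 matched 1 other gene in at least 90 of 100 bases, and 5 of these were tested. They are 6 of Mug-ps1, 5 of Nlrp5-ps and 1 of 2700099C18Rik, whose match is Ndc80, a gene of the outer kinetochore. No more than 65 bases matched for 53 circles, among them Pvt1 exon 2 and Gm40438 exons 3 to 5. Circles of Zswim6 matched Zswim4 or Zswim5, other genes of its zinc finger family, in 60 to 78 bases.

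Zswim6 gave 5 circles under its processed_transcript type. Exons 5 to 8 (chr13:107738372-107748363, minus strand) had 3.31, 3.82 and 5.53 SRPBM as the lowest, median and highest in PZH, against 0.72, 5.69 and 8.82 SRPBM in Control. The Control libraries enclosed the PZH range on both sides, and the log2 fold change was -0.09 ± 0.47 (SE, limma adjusted p = 0.978). The circle labelled exons 6 to 8 (chr13:107743536-107748363, minus strand) is numbered on another transcript, of 15 exons where that of exons 5 to 8 has 13. Both circles begin at the same exon start, and they differ in their end. The circle labelled exons 6 to 8 was above 0 in all 6 PZH libraries, up to 2.77 SRPBM, and in 4 Control libraries, up to 2.91 SRPBM.

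Antisense hosts gave low circles. Rab10os exons 2 to 4 (chr12:3237285-3238112, plus strand), from a gene antisense to Rab10, was above 0 in 5 PZH libraries, up to 5.06 SRPBM, and in 4 Control libraries, up to 5.86 SRPBM. The exon 4 circle of 4930481A15Rik (chr19:5417394-5418251, plus strand) was above 0 in 2 PZH libraries, at 1.54 and 3.53 SRPBM, and in 4 Control libraries, up to 7.44 SRPBM. Its log2 fold change was -1.29 ± 0.76 (SE, limma adjusted p = 0.708) and did not pass. On the genome, 1 circle overlapped a protein_coding gene on its own strand and 2 on the opposite strand.

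Many long noncoding RNAs known from other work gave no circle under the rule. Of 59 names of well studied noncoding genes on a list, 6 had at least 1, and only Pvt1 had one above 0 in at least 6 libraries. Names were compared with host symbols, so a name that the annotation does not use as a symbol could not match. The names may also not all be distinct genes. Gm40438, which was also put on that list but has no role known here, is left out of these counts. Gas5, a host of small nucleolar RNAs, gave 3 circles, each above 0 in 1 library, at up to 4.76 SRPBM. Dleu2, the host of the miR-15a and miR-16 cluster, gave 1 circle, above 0 in 2 PZH libraries and 1 Control library, at up to 6.41 SRPBM. Ftx, a gene of the X inactivation centre, gave 2 circles with at most 2 libraries above 0. Mirg, a microRNA host of the imprinted Dlk1-Dio3 region, gave 1 circle in 1 PZH library, at 2.16 SRPBM, which holds the hairpins of Mir668 and Mir485 in its exons. Lncpint, a target of p53, gave 1 circle in 1 PZH library, at 0.756 SRPBM.

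Across these circRNAs no difference between the groups passed the test. Of the 16 tested, 0 had a limma adjusted p under 0.05, against 2 of 3870 circRNAs (0.0517%) in the whole table. At an unadjusted limma p under 0.05, 2 of 16 had a positive fold change, Gm40438 exons 3 to 5 and Nlrp5-ps exons 2 to 11, where the share over the table was 4.55%. With a negative fold change there were 0 of 16, where the share was 3%. The exact permutation test gave the same counts of 2 and 0. Counts this small can be read only against those shares.

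In 0 of 16 did the libraries of the groups not overlap, against 0.672% in the table. Fold changes were positive for 9 and negative for 7, with a median of 0.05 on the log2 scale, beside 2100 positive and 1770 negative over the table and a median of 0.06. Summed per host, 11 noncoding hosts were tested, and 0 passed, as did 0 of 2198 hosts in all (0%). At an unadjusted limma p under 0.05, 2 of the 11 hosts had a positive fold change, where the share over all hosts was 5.14%, and 0 a negative one, where it was 3.05%. These hosts were Gm40438, with a log2 fold change of 1.54 ± 0.44 (SE), and Nlrp5-ps, with 1.74 ± 0.61 (SE). Neither passed the adjusted test (limma adjusted p of 0.267 and 0.437). Most of each host's sum is the single circle described above, so the host sums are no separate support for its difference.

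**Figure D5:**
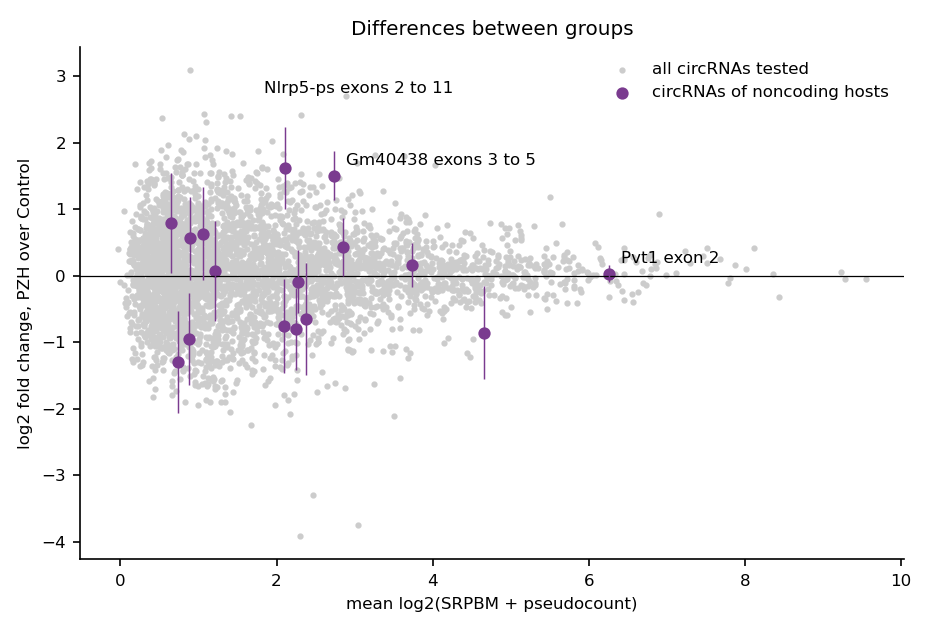
Log2 fold change of PZH over Control (y axis) against mean log2(SRPBM + pseudocount) (x axis) for all 3870 circRNAs tested in grey and the 16 of noncoding hosts in colour with standard errors as bars. Gm40438 at 1.51 and Nlrp5-ps at 1.62 lie highest among the coloured points, Pvt1 exon 2 lies at 0.03 with the shortest bar, and none passed the adjusted test.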

How the data were processed

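Livers of 6 PZH and 6 Control mice were measured. SRPBM, the signal the authors deposited, has 1 column per library. Trim Galore and STAR were used with GRCm38 (mm10), per the submitters' processing notes. The sources used here name neither the circRNA caller and its filters nor how SRPBM was calculated. RNA was extracted with Trizol and prepared with a TruSeq kit, per the labels' protocols. Within values up to 8.5 steps, where 1 step is the likely worth of 1 read pair, 56.8% to 63.8% per library lay from 0.05 below to 0.1 above a whole step. Whole reads were therefore not recovered, no count model was used, and depth in reads is unknown. Abundant circRNAs were also listed at 0, so a 0 is no proof of absence, and circRNAs with a 0 get no mean ± SD.

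Hosts were assigned here from exon boundaries in GENCODE M21, and sequences were read from its transcripts. RefSeq types (GRCm38.p6) were matched by Ensembl gene ID, or by symbol where no ID matched, for 37 of 38 hosts. The main test was 2-sided, by limma 3.58.1 in R 4.3.3 with a trended variance, for the 3870 circRNAs that 6 or more of the 12 libraries list above 0. It used log2 of SRPBM plus a pseudocount of 0.636, the smallest value of a library taken as a median over libraries, with Benjamini-Hochberg adjustment over all 3870 at 0.05. Fold changes are on that scale, which understates changes between low values above 0. A listed 0 can enlarge a change, shrink it or turn its sign. Host sums were fitted likewise. Exact permutation tests used all 924 assignments. The code was tested on simulated data. Python 3.11.15, pandas 2.3.3, numpy 2.4.6, scipy 1.17.1 and matplotlib 3.10.9 were used.

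The circRNAs, gene lists and tests were chosen with earlier results of these data known. Named circRNAs are the 10 highest by mean, up to 8 in each direction with an unadjusted p under 0.05 (filled to 4), those of the 3 hosts with most circRNAs and those of well studied noncoding genes, the last 2 where above 0 in at least 6 libraries. Others named were chosen after their values were seen. Alternatives were pseudocounts, filters, scalings, no variance trend, a replicate block, zeros as missing, the exact test and leaving out each library.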

Additional observations from a re-analysis of the deposited data

Results flagged for a closer look

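Among 54 groups of 6 values for circRNAs of noncoding hosts, 2 held a library set apart from the other 5, and chance does this in about 1 group in 20. The Mug-ps1 circle of exons 10 to 11 was lowest in PZH replicate 3, at 1.69 SRPBM where the nearest library had 3.00 SRPBM, a gap of 0.693 of the group's range. The Pvt1 circle of exons 6 to 7 was highest in Control replicate 4, at 6.13 SRPBM where the nearest library had 1.91 SRPBM, a gap of 0.689 of the range.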

How the results depend on the processing

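Over all circRNAs tested, the main setting gave 2 adjusted calls and the alternatives 6 (above 0 in at least 3 libraries), 10 (in all 12), 30 (no filter), 12 (zeros as missing), 0 (exact permutation test) and 1 to 3 without 1 library. Unadjusted, 504, 134 and 524 were found under the filters of 3, 12 and 1 library. Among circRNAs of noncoding hosts, 1 was called with the filter of 12 and 2 with zeros as missing, Gm40438 exons 3 to 5 in both and Mug-ps1 exons 10 to 11 in the second. Unadjusted, 1 had a positive fold change under each of these settings and 1 without the circles of Mug-ps1 and Nlrp5-ps, an alternative chosen after seeing the data. With a negative one there were 2 without a filter, 2 with zeros as missing and 0 to 2 without 1 library. Host sums gave 1 with the filter of 12 and 2 to 4 without 1 library, 4 of them without Control replicate 2.

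Replicate numbers did not pair the libraries: over 1089 circRNAs, same-numbered libraries had r of -0.122 to 0.0299, and 0 libraries correlated best with their own number. These r are not on the same basis as the library correlations given earlier, which were high for every library. With a replicate block the whole table gave 1 call and noncoding hosts 0.

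Signs turned for 8 named circRNAs, none of them called, some near 0 and some not. Pvt1 exon 2 had -0.0059 and -0.012 under median-of-ratios and summed scaling and ran from -0.0097 to 0.085 without 1 library. With zeros as missing, the log2 fold change was 0.12 for Mug-ps1 exons 7 to 12 (main value -0.85), 0.033 for Gm45086 (-0.65), -0.46 for Rab10os (0.07), -0.16 for Pvt1 exons 6 to 7 (0.80) and -0.066 for Zswim6 exons 6 to 8 (0.56). Without 1 library, it ran from -1.11 to 0.12 for Mug-ps1 exons 7 to 12, -0.10 to 0.39 for Mug-ps1 exons 7 to 11, -0.47 to 0.092 for Zswim6 exons 5 to 8 and -0.30 to 0.45 for Rab10os. The cause was not tested beyond the settings' own construction. The difference in summed signal, PZH minus Control, was 4.26 SRPBM, and -2.01 after scaling. The median of all circRNAs, 0.06 on the log2 scale, ran from -0.0086 without Control replicate 2 to 0.10 without Control replicate 3. The smallest values above 0 were 0.584 to 0.719 SRPBM per library, and no detection limit was tested.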
